A study of Mus musculus with 6 samples.

Results

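The genes that carry retinoic acid inside the cell, make it, sense it and break it down were examined in mouse embryonic fibroblasts with and without Klf4. The 9 genes were Crabp1, Crabp2, Rara, Rarb, Rarg, Aldh1a1, Aldh1a2, Aldh1a3 and Cyp26b1. All probes deposited under one of these symbols were taken, which gave 12 of the 46621 probes on the array. Rarb was read by 2 probes, Aldh1a3 by 3 and each other gene by 1. The genes were picked with the difference between the genotypes already known, so their own differences are a description, and no p-value is given for them.

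The Klf4-null group held 3 samples of genotype Klf4 -/-, and the wild-type group held 3 samples of genotype Klf4 +/+. Both were connective-tissue cells grown from embryos of the C57Bl/6 strain, with a labelled age of 13 days, kept in serum-containing medium and harvested near confluence. No added retinoid is named in the labels. Each sample was read on 1 Illumina bead array, and the labels number the replicates without naming separate embryos or cultures, so the spread between them may be technical. Every adjusted p-value below is measured against that spread, and need not hold for differences between embryos or cultures. A difference between the genotypes and one between cell preparations cannot then be told apart.

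Retinoic acid is made from vitamin A in 2 oxidation steps. Retinol is first turned into retinal by alcohol and retinol dehydrogenases, and retinal is then turned irreversibly into retinoic acid by the retinaldehyde dehydrogenases Aldh1a1, Aldh1a2 and Aldh1a3. In the cytosol it is held by the binding proteins Crabp1 and Crabp2. Crabp2 delivers it to the nucleus, where the receptors Rara, Rarb and Rarg pair with retinoid X receptors on DNA, and the Cyp26 enzymes, here Cyp26b1, oxidize it for removal. In the embryo this system patterns the hindbrain, limbs and skeleton.

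The DNA to which these receptors bind is best seen in the promoter of Rarb, a direct target of its own ligand. The 250 bases before its start, at chr14:16575477-16575726 on the minus strand of GRCm38.p6 (RefSeq), are shown because they hold the repeat of receptor-binding hexamers that gives the classical response element. The capitals mark the hexamers.
Rarb: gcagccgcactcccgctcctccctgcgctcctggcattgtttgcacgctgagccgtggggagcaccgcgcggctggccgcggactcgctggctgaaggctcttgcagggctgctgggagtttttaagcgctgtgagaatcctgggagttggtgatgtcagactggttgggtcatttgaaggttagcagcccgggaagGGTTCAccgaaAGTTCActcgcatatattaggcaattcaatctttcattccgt
The repeat lies 53 to 37 bases before the start. The hexamer searched was AGGTCA, in which the first letter could also be G and the third also T, repeated in the same orientation with any 5 bases between, on both strands. Such a repeat was found in 29 of 32851 RefSeq windows of this length (0.0883%). Of the 9 genes, 7 had a window (Crabp2 and Aldh1a3 had none), and only the window of Rarb held the repeat. The window of Cyp26a1, a further retinoic acid hydroxylase, held one too, at chr19:37697776-37697792 on the minus strand.
Cyp26a1: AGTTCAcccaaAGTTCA
With 2 bases or 1 base between the hexamers, no window of the 7 genes held a repeat.

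The promoter of Cyp26b1 is shown because its transcript was lower without Klf4, and because Klf4 is known to bind CACCC-type elements. It covers the 250 bases at chr6:84593811-84594060 on the minus strand of GRCm38.p6 (RefSeq), and the capitals mark the letters CACCC.
Cyp26b1: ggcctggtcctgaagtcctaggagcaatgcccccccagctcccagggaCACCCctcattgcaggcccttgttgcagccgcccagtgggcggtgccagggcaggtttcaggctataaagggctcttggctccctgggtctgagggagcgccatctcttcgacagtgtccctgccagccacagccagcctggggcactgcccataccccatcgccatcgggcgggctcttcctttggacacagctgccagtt
These letters occurred on either strand in 52% of all windows, and in a window of 4 of the 7 genes: Crabp1, Rara, Rarg and Cyp26b1. A gene counted if any of its windows held them, and Rara had 4 windows and Rarg 2. The share of windows and the count of genes are therefore not alike. A match describes the letters and is no evidence of binding.

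Values are normalized intensities on a linear scale. A probe was taken as above background on an array when it exceeded a floor estimated from the dim probes, at 54.0 to 54.2 on the 6 arrays. It was tested when it did so on at least 3 of the 6 arrays. Of the 12 probes, 4 were tested (Crabp1, Crabp2, Rarg and Cyp26b1), and 8 were not, of which 5 were above the floor on no array. Probes that passed this filter through 1 bright group alone were set apart by the filter, although not all of them were called. In the limma fit over all 21837 tested probes, 38.9% had an adjusted p under 0.05, 19% higher and 19.9% lower in Klf4-null cells. These included 2 of the 4 member probes as higher and 1 as lower, a count that describes the choice of genes and from which nothing is read.

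The checks on the samples touch these results. The 3 probes of Klf4 did not move together, as probes ILMN_1221264 and ILMN_1241903 passed the floor in wild-type cells (3 of 3 arrays) and not in null cells (0 of 3), whereas the brightest, ILMN_2593684, had a mean of 715 in Klf4-null cells and 426 in wild-type cells. Where these probes lie with respect to the disruption is not given in the sources used here. Of 12 fibroblast markers, 10 were above the floor on every null array and 11 on every wild-type array, with sums of 50354 to 55128 in Klf4-null and 43290 to 47631 in wild-type cells. Lum, a keratan sulfate proteoglycan, was at background throughout. Of the 11 tested, 3 rose, 3 fell and 5 did not pass, by limma over all tested probes. The rises were of the proteoglycan Dcn, at 2843 ± 78.6 in Klf4-null cells against 133 ± 6.8 in wild-type cells (21.5-fold, adjusted p = 3.1e-14), and of the collagens Col3a1 (5.65-fold, adjusted p = 4.0e-11) and Col1a1 (2.1-fold, adjusted p = 1.0e-04). Pdgfra, a growth factor receptor, was 1.8-fold lower (adjusted p = 5.1e-06) and the collagen Col1a2 1.26-fold lower (adjusted p = 0.0144). Thy1 was above the floor on no null array, at 49.2 ± 0.505 in Klf4-null cells against 3307 ± 299 in wild-type cells (SD, n = 3 each), at least 60.9-fold lower. It passed the filter through the wild-type arrays alone, so no adjusted p is given. Of 8 epithelial markers, none was above the floor on every null array and only Krt14 was on every wild-type array, with sums of 364 to 375 and 443 to 481, and Epcam, Krt5, Krt19 and Cldn7 were at background on all arrays. Krt14 was at 41.1 ± 1.29 in Klf4-null and 143 ± 17.5 in wild-type cells, at least 2.63-fold lower. Sums of the endothelial, blood, neural and skeletal muscle lists overlapped between the groups. Of their tested markers, Sox2 was 1.33-fold higher in null cells (adjusted p = 6.2e-04 by limma) and Cdh5 1.2-fold lower (adjusted p = 0.0159). The others did not pass. The sum of 4 kidney and liver markers was 203 to 213 in Klf4-null and 179 to 187 in wild-type cells, with Afp above the floor on every null array and Alb and Pax2 at background. The part of these shifts in the retinoid differences was not tested. In bulk RNA, fewer cells of a type and less RNA per cell cannot be told apart.

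The 2 cytosolic binding proteins behaved differently. Crabp2, which passes retinoic acid to the receptors, had intensities of 1282, 1253 and 1341 on the Klf4-null arrays, against 47.6, 47.0 and 47.9 on the wild-type arrays. Every null array stood far above background, and no wild-type array did. The means were 1292 ± 45.3 in Klf4-null and 47.5 ± 0.499 in wild-type cells (SD, n = 3 each), a level at least 23.9-fold higher in null cells, computed against the floor. The log2 fold change as measured was 4.77 (SE 0.07), and 17 of the tested probes had a larger rise.

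Crabp1, its paralog, which is known for sequestering retinoic acid and steering it to breakdown, was well above background in both genotypes. Its intensities were 2886, 3538 and 3626 on the Klf4-null arrays, against 2701, 3180 and 2201 on the wild-type arrays. The groups overlapped, since the lowest null array was below the highest wild-type array. The means were 3350 ± 405 in Klf4-null and 2694 ± 489 in wild-type cells (SD, n = 3 each), with a log2 fold change of 0.32 (SE 0.13). Leaving out 1 array at a time gave values from 0.19 without wild-type replicate 3 to 0.45 without wild-type replicate 2. Of the pair, wild-type cells therefore had a measurable signal for Crabp1 alone, while null cells had one for both. Whether either transcript adds to the signal of the other's probe was not tested, as probe sequences were not used here.

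**Figure D1:**
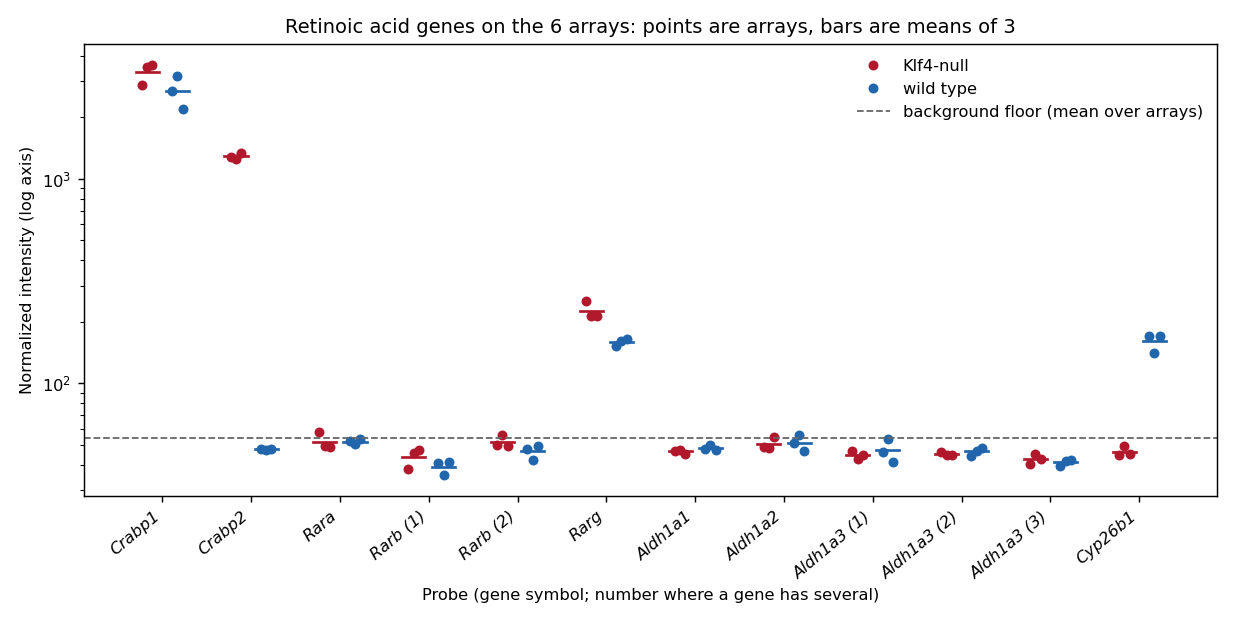
Normalized intensity (log axis) of the 12 probes on the 3 Klf4-null arrays (red, left of each pair) and the 3 wild-type arrays (blue, right), with bars at the group means and the background floor dashed. Crabp2 is above the floor on null arrays only, Cyp26b1 on wild-type arrays only, and the Aldh1a genes, Rara and Rarb lie around or under the floor in both groups.

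Among the receptors, Rarg was the one with a signal. Rarg, the receptor known for its roles in cartilage and skin, had 252, 214 and 214 on the Klf4-null arrays, against 153, 161 and 165 on the wild-type arrays. All null arrays were above all wild-type arrays (47.3% of all 21837 tested probes had groups that did not overlap). The means were 226 ± 21.9 in Klf4-null and 160 ± 6.49 in wild-type cells (SD, n = 3 each), a 1.41-fold higher level (log2 fold change 0.50, SE 0.09).

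Rara, the most widely expressed of these receptors in mouse tissues, had 57.6, 49.2 and 49.0 on the null arrays, against 52.1, 50.3 and 53.5 on the wild-type arrays, and was above the floor on 1 null array alone. Probe ILMN_1246864 of Rarb had 38.1, 45.8 and 47.3 in null cells, against 40.7, 35.6 and 41.1 in wild-type cells, below the floor on every array. Its other probe, ILMN_2617194, had 49.8, 56.1 and 49.4 in null cells, against 47.8, 42.4 and 49.4 in wild-type cells, and passed the floor on 1 null array, the groups meeting at 49.4. So the gene whose promoter carries the receptor element shown above had no signal that could be set apart from background in either genotype. With 1 probe for Rara and probe positions unknown, other transcripts of these genes may have gone unread.

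The 3 enzymes that make retinoic acid were at background. Aldh1a1, known from the dorsal retina and adult epithelia, had 46.7, 47.4 and 45.3 on the null arrays, against 48, 50 and 47.2 on the wild-type arrays, and no array passed the floor. Aldh1a2, the main source of retinoic acid in the early embryonic mesoderm, had 49.0, 48.1 and 54.5 in null cells, against 51.2, 55.8 and 46.7 in wild-type cells. One array of each genotype passed the floor for it, by a small margin, and the groups overlapped. The 3 probes of Aldh1a3, which acts in the eye and nasal region, ranged from 40.2 to 46.9 in null cells and from 39.3 to 53.4 in wild-type cells, below the floor throughout. The wild-type maximum came from replicate 2 on probe ILMN_1235590. These genes therefore have only an upper bound, and no fold is given.

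Cyp26b1, which clears retinoic acid in limb mesenchyme, skin and gonad, had 44.8, 49.2 and 45.1 on the Klf4-null arrays, against 170, 141 and 171 on the wild-type arrays. Every wild-type array was above the floor, and no null array was. The means were 46.3 ± 2.44 in Klf4-null and 161 ± 16.9 in wild-type cells (SD, n = 3 each), so the level in null cells was at least 2.96-fold lower. The log2 fold change as measured was -1.79 (SE 0.09), and 194 of the tested probes had a larger fall. The paralog Cyp26a1 was at background in both genotypes on probe ILMN_1241085, and its probe ILMN_2691295 passed the floor on 1 null array. Cyp26c1 had no probe under its symbol.

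**Figure D2:**
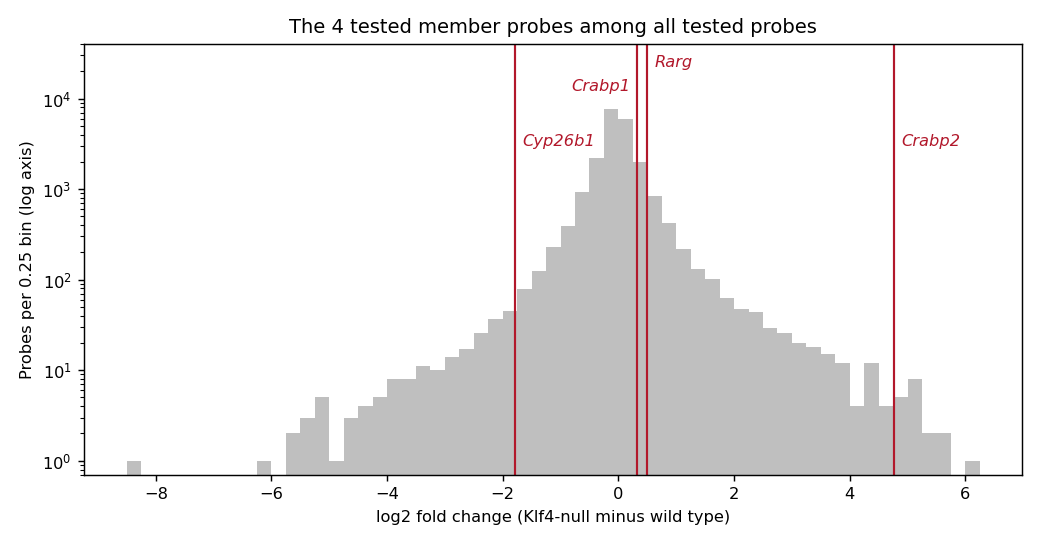
Number of tested probes (log axis) by log2 fold change, Klf4-null minus wild type, in bins of 0.25 (grey), with the 4 tested member probes as red lines. Crabp2 at 4.77 lies in the sparse upper tail and Cyp26b1 at -1.79 on the lower flank, while Crabp1 at 0.32 and Rarg at 0.50 lie in the crowded centre, with 3271 and 2036 probes that rose by more.

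The genes with the profile most like that of Crabp2 were found by the distance between log2 values, each centred on its mean over the 6 arrays. The nearest were E2f6 (distance 0.15), Scx (0.18), Pdrg1 (0.21), Plekha2 (0.25) and 1 probe of Sumo3 (0.25), with log2 fold changes of 4.69 to 4.93. Scx, a transcription factor of tendon progenitors, had intensities of 1271, 1241 and 1360 on the null arrays, against 43.6, 43.7 and 42.2 on the wild-type arrays. The others had the same step. Mean intensities in null and wild-type cells were 1117 and 41.7 for E2f6, 1132 and 44 for Pdrg1, 1661 and 54.5 for Plekha2, and 1548 and 51.4 for Sumo3. A shared role of these genes was not tested. For Cyp26b1 the nearest were Prickle1 (0.16), Cdsn (0.17), Pros1 (0.18), Peli2 (0.19) and Abcc10 (0.20), with log2 fold changes from -1.82 to -1.67. These likenesses rest on 6 arrays in 2 groups and are dominated by the step between genotypes.

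The rest of the retinoid system was read through 50 further genes chosen for their roles, of which 48 had a probe and 27 were tested, each by its brightest tested probe. Of these, 3 rose, 9 fell and 15 did not pass. That is 44.4% called, beside 39.9% of all 16225 genes tested (19.3% higher and 20.6% lower). Of the 27, Adh7, counted as a rise, passed the filter through the null arrays alone. With probes above the floor on all 6 arrays, 10 of these further genes were called, against 12 in the full fit. The median log2 fold change of the 27 was -0.10, beside -0.02 over all genes tested. The adjusted p-values below are from limma over all tested probes, with n = 3 per group, measured against a spread that may be technical.

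Of 5 tested uptake, storage and carrier genes, 0 passed in limma and 0 had an unadjusted p under 0.05. Fabp5, a fatty-acid-binding protein that can carry retinoic acid to another nuclear receptor, had a log2 fold change of -0.19 (SE 0.10, adjusted p = 0.161). The retinol importer Stra6, the serum carrier Rbp4 and the esterifying enzyme Lrat were too dim to be tested.

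Of 9 tested genes of retinol and retinal oxidation and reduction, 2 rose, 4 fell and 3 did not pass. That is 66.7% called, beside 39.9% of all genes tested. Adh7, an alcohol dehydrogenase with high activity on retinol, had 959, 934 and 1016 on the null arrays, against 44.3, 45.0 and 41.8 on the wild-type arrays with probe ILMN_2621448. It was at least 17.9-fold higher in null cells (log2 fold change 4.47, SE 0.08). With this probe Adh7 passed the filter through the null arrays alone, so no adjusted p is given. Its other probe, ILMN_1238226, did not show this, with 60.0, 53.3 and 61.2 in null cells and 59.6, 54.1 and 56.8 in wild-type cells (log2 fold change 0.03, adjusted p = 0.819), and the 2 probes of Adh7 therefore disagree.

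Rdh10, the retinol dehydrogenase required for retinoic acid synthesis in the mouse embryo, was 1.36-fold higher, at 346 ± 29.3 in Klf4-null and 255 ± 20.5 in wild-type cells (log2 fold change 0.44, SE 0.09, adjusted p = 0.00142). The genes that fell changed little. Dhrs4 was 1.5-fold lower (log2 fold change -0.59, adjusted p = 7.2e-05) and Rdh14 1.43-fold lower (-0.52, adjusted p = 1.3e-04), both with a second tested probe that fell. Rdh11, which reduces retinal, was 1.38-fold lower (-0.46, adjusted p = 2.2e-04), and Adh5 1.24-fold lower (-0.31, adjusted p = 0.00791), with a dimmer tested probe of Adh5 that did not pass. The retinal reductase Dhrs3, itself induced by retinoic acid, was at background.

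Both tested partners of the receptors fell by their brightest probes, and 20.6% of all genes tested were called lower. With 2 genes, nothing is read from this count. Rxra had 78.7, 68.1 and 73.7 on the null arrays, against 125, 130 and 138 on the wild-type arrays, which did not overlap (as for 47.3% of all tested probes). It was 1.79-fold lower in null cells (log2 fold change -0.84, SE 0.08, adjusted p = 2.0e-06). A further Rxra probe stayed under the floor on every array. Rxrb was 1.33-fold lower on its brightest probe, at 1203, 1459 and 1522 in null cells against 1954, 2024 and 1593 in wild-type cells (log2 fold change -0.41, SE 0.11, adjusted p = 0.00846). Its other tested probes gave 0.17 and 0.07 and did not pass (adjusted p = 0.365 and 0.558). Rxrg was at background. In null cells Rarg was thus higher and Rxra lower.

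Of 11 tested coregulators, 1 rose, 3 fell and 7 did not pass. The share called, 36.4%, was near the 39.9% of all genes tested. Tbl1xr1, a subunit of the corepressor complex, was 1.32-fold higher (0.40, adjusted p = 0.00216), while its relative Tbl1x was 1.39-fold lower on its brightest probe (-0.48, adjusted p = 3.7e-04). The coactivators Crebbp, an acetyltransferase, and Med1, a Mediator subunit, had log2 fold changes of -0.44 (adjusted p = 0.00149) and -0.33 (adjusted p = 0.00645). Crebbp was close to the floor in null cells, at 46.8, 57.7 and 55.1 against 68.3, 73.8 and 73.2 in wild-type cells. A further tested probe of Crebbp, above the floor in wild-type cells alone, had a log2 fold change of -0.30. The further tested probes of Tbl1x and Med1 did not pass. Of those of Tbl1xr1, ILMN_1244535 rose too (0.52, adjusted p = 1.5e-04) and the others did not pass. Ncor1, a main corepressor, had -0.05 (adjusted p = 0.679).

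**Figure D3:**
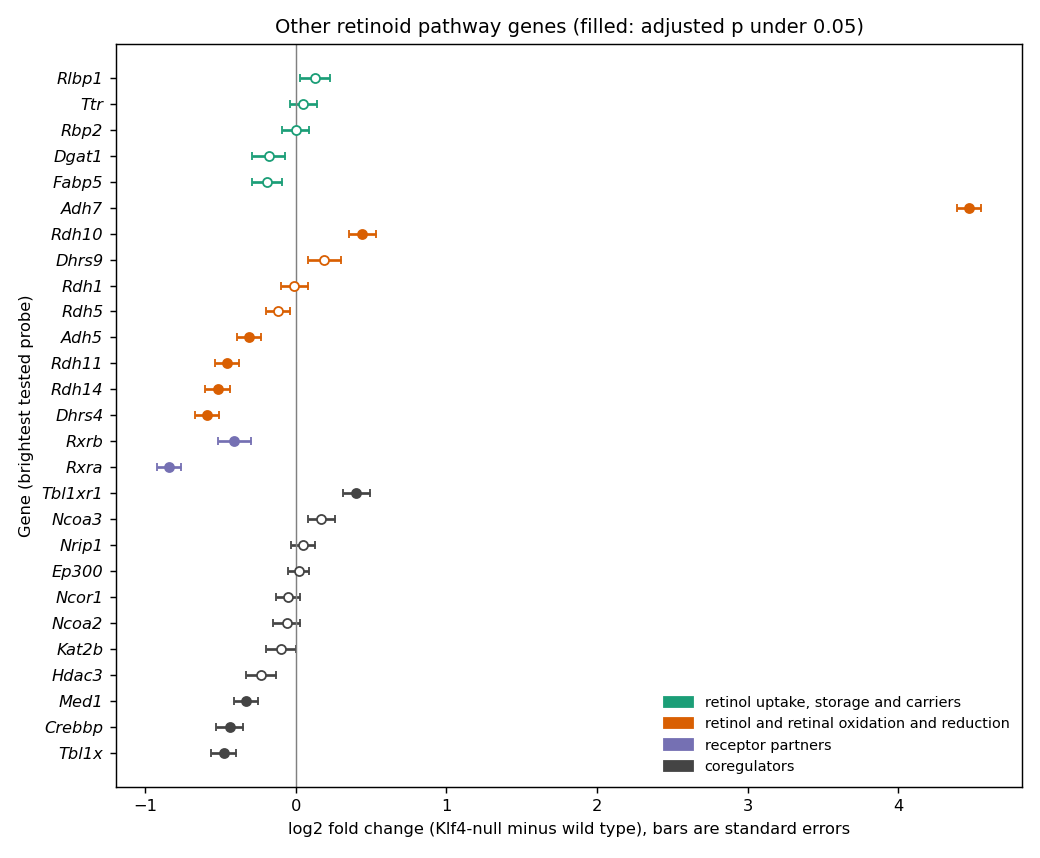
Log2 fold change, Klf4-null minus wild type, with standard error, of the 27 tested further retinoid genes, grouped by role and coloured by group, with filled points for an adjusted p under 0.05. Adh7 at 4.47 stands far from the rest, which lie between -0.84 and 0.44.

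Genes known to respond to retinoic acid in mouse embryos or cell lines moved in both directions. Of 23 listed, 21 had a probe and 16 were tested, of which 5 rose, 10 fell and 1 did not pass, with a median log2 fold change of -0.39. Without the Hox genes 12 were tested, of which 5 rose and 7 fell. The share called was 93.8%, and 100% without the Hox genes, beside 39.9% of all genes tested. The list was chosen with earlier results of these data known, so the share is not read as particular to the list. Of the 16, Gata6 and Tbx5 passed the filter through the null arrays alone. With probes above the floor on all 6 arrays, 12 responsive genes were called, against 15 in the full fit.

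Sox9, a transcription factor of cartilage and neural crest, had 663, 638 and 760 on the null arrays, against 3691, 4010 and 3570 on the wild-type arrays. It was 5.48-fold lower in null cells (log2 fold change -2.45, SE 0.09, adjusted p = 4.1e-11). Meis1, a homeobox cofactor of Hox proteins that marks the proximal limb, had 138, 123 and 120 in null cells, against 526, 538 and 583 in wild-type cells. It was 4.33-fold lower (-2.12, SE 0.08, adjusted p = 1.1e-10), and both further tested probes of Meis1 fell too. Hoxd4 was 6.78-fold lower (-2.76, adjusted p = 1.1e-11). Hoxb1 was the tested gene that did not pass (-0.11, adjusted p = 0.451).

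Gata6, a zinc-finger factor induced by retinoic acid in mouse embryonal carcinoma cells, moved the other way. It had 212, 178 and 175 on the null arrays, against 41.1, 35.5 and 42.3 on the wild-type arrays, where it was at background. It was at least 3.47-fold higher in null cells (log2 fold change 2.25, SE 0.10). Gata6 passed the filter through the null arrays alone, so no adjusted p is given. Its relative Gata4 was 1.89-fold lower (-0.92, adjusted p = 5.1e-07). The adaptor Nedd9 was 1.75-fold higher on its brightest probe (0.81, adjusted p = 3.7e-05), and a further probe rose too. Transglutaminase 2 (Tgm2), a target in many cell types, was 1.53-fold lower, at 286 ± 18.2 in Klf4-null and 437 ± 17 in wild-type cells (-0.62, adjusted p = 2.9e-05). Stra8, Rarres1 and Cdx1 were at background in both genotypes.

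**Figure D4:**
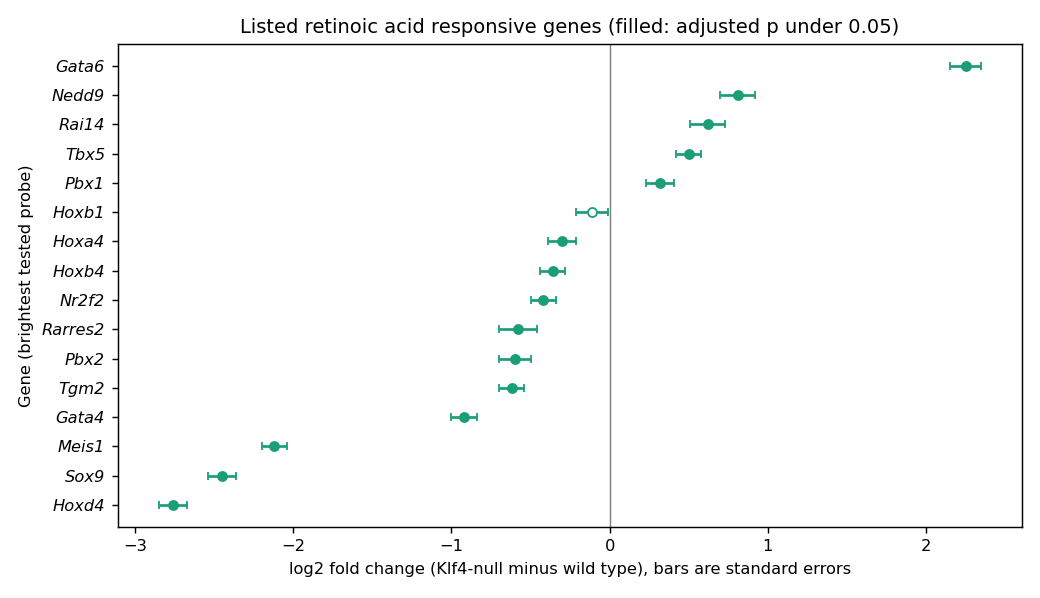
Log2 fold change, Klf4-null minus wild type, with standard error, of the 16 tested genes listed as responsive to retinoic acid, with filled points for an adjusted p under 0.05. Gata6 at 2.25 stands at the upper end, and Meis1, Sox9 and Hoxd4 lie between -2.12 and -2.76.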

How the data were processed

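The authors' deposited value table gave 1 linear intensity per probe for each of the 6 samples. Medians of 51.7 to 51.8 and nearly identical sorted values show normalization between arrays. No source used here names the scanner software, the normalization or any background subtraction. Biotinylated cRNA was hybridized to Illumina bead arrays, per the labels' protocols. A further deposited table supplied gene symbols, and its 12 columns of signals and detection p-values were not used, since their names match no sample label.

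Log2 intensities were fitted with limma 3.58.1 in R 4.3.3 (lmFit, eBayes; 2-sided, Benjamini-Hochberg over all tested probes) on all 6 arrays. The floor was the 95th percentile of the dim probes' distribution mirrored about its mode. Where all 3 arrays of a group lay below it, the fold is a bound, with each dim value raised to its floor. Symbols were updated through RefSeq (GRCm38.p6): 25438 were current, 8745 came from a synonym and 12438 were kept. No probe of the 9 genes lay under another symbol. The number of arrays limits the precision.

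The members, lists, floor and alternatives were chosen with earlier results of these data known. Named genes are all members, Klf4, the changed genes of each list (up to 4, by size), all receptor partners and degradation enzymes, and the 5 nearest profiles of 2 members. Others were named after their values were seen. Some listed items are not reported here. Replicate numbers did not pair the samples.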

Additional observations from a re-analysis of the deposited data

How the results depend on the processing

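The log2 fold change ranged from 4.34 to 4.79 for Crabp2 and from -1.88 to -1.48 for Cyp26b1 over 11 alternatives each. It ranged from 0.42 to 0.54 for Rarg and 0.19 to 0.45 for Crabp1 over 12 each. Arrays left out are included in all of these ranges. A changed filter, or replicate number as a block, cannot alter a log2 fold change, so those alternatives do not test it. The genes were chosen on this contrast, and Crabp2 and Cyp26b1 passed the filter through their bright group, so their directions are no sign of stability. With probes above the floor on all 6 arrays, 1 member probe had an adjusted p under 0.05 in place of 3. This is because Crabp2 and Cyp26b1 are at background in 1 genotype and leave the fit. Member probes called were 4 with replicate number as a block, without Klf4-null replicate 1 and without wild-type replicate 2, where Crabp1 passed too. Whether Crabp1 is called therefore depends on the setting. Leaving out each array in turn gave 12 to 14 further pathway genes (12 in the full fit) and 13 to 15 responsive genes (15 in the full fit) called. The other settings were no filter, repeated quantile normalization, normexp correction, values raised to the floor, each probe counted alone, and each probe's own variance, and none moved these counts by over 1.5 times. Same-numbered arrays of the 2 groups correlated at -0.016, 0.053 and -0.225 in their deviations from the group means, so the numbers do not pair them. Differently numbered arrays correlated at -0.259 to 0.273, and another pairing was not tested. With the replicate block 8055 of all probes were called, against 8487 without it. Ratios of dim probes are bounds, and any background left in the deposited values would make other ratios too small.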
